A study of Homo sapiens with 18 samples.

Results

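The genes described here are 3 FOXO transcription factors, *FOXO1*, *FOXO3* and *FOXO4*, and 7 genes known as FOXO targets, *DEPP1*, *TXNIP*, *CITED2*, *CCNG2*, *BCL6*, *IRS2* and *INSR*. Their mRNA was measured by RNA-seq in U2OS, an osteosarcoma cell line of human origin with functional p53. The cells received a control siRNA (siControl) or an siRNA against *ANKRA2* (siANKRA2) or *RFXANK* (siRFXANK), and were then kept in Nutlin-3a (10 µM) or its solvent DMSO for 24 h. Nutlin-3a blocks the binding of MDM2 to p53 and thereby activates p53. Each of the 6 groups held 3 samples, 18 in all, from polyadenylated RNA. Each knockdown was 1 labelled siRNA treatment, and the labels tie no sample to a separate culture, so the errors given measure the spread between samples, which may be technical. The siRFXANK samples carry labels of another form (bone as tissue, epithelial cells, wild-type) and have no siControl samples of their own, so their batch and siRFXANK cannot be told apart in siRFXANK over siControl. Of the 10 genes, 9 were among the 26702 genes of the tables used here, and *IRS2* has no row in them. The genes were chosen by name as FOXO factors and targets, except that *DEPP1* was chosen by its Nutlin-3a response, which differed after siRFXANK. For *DEPP1* the values are therefore a description with no test in every comparison but 1, Nutlin-3a over DMSO in siANKRA2 cells, which shares no sample with siRFXANK or siControl. Counts of genes past the test are over the 8 others with values.

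FOXO factors bind DNA through a forkhead domain and turn on genes of cell cycle arrest, stress defence and metabolism. Insulin and growth factors act through PI3K and AKT to phosphorylate FOXO factors, which then bind 14-3-3 proteins and leave the nucleus, so FOXO activity is set largely by protein modification and location and is not read from FOXO mRNA. *DEPP1* (decidual protein induced by progesterone) is a stress-responsive FOXO target, *TXNIP* binds thioredoxin and limits glucose uptake, *CCNG2* encodes the atypical cyclin G2, *CITED2* a transcriptional coregulator that binds CBP/p300, *BCL6* a transcriptional repressor, and *INSR* and *IRS2* encode the insulin receptor and an adaptor that carries its signal.

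The promoters of *DEPP1* and *TXNIP*, the genes whose levels spanned the most between groups, are shown with a stretch of *FOXO4* because they hold a FOXO core. Windows of 300 bases, 250 before and 50 after each RefSeq start on GRCh38.p14, were searched on both strands for the FOXO core GTAAACA. It occurred in *DEPP1*, *TXNIP* and *FOXO4*, 3 of the 10 genes, and in 4.19% of the 27305 genes with a window and 3.42% of all 35116 windows. In *DEPP1* (chromosome 10, minus strand) the core begins 180 bases before the start, and in *TXNIP* (chromosome 1, minus strand) 124 bases before it. In *FOXO4* (X chromosome, plus strand) it begins 23 bases after the RefSeq start, but lies before the start of the gene in GENCODE (71096197). The 250 bases before the start of *DEPP1*, chr10:44978810-44979059, those of *TXNIP*, chr1:145996580-145996829, and the 27 bases around the match in *FOXO4*, chrX:71095864-71095890, are given 5′ to 3′ on the strand of the gene, with the core in capitals.
DEPP1: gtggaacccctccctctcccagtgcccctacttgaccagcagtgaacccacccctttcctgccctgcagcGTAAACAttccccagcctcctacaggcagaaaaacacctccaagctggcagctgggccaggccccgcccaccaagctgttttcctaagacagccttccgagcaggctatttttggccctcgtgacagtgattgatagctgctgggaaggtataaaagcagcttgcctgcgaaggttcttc
TXNIP: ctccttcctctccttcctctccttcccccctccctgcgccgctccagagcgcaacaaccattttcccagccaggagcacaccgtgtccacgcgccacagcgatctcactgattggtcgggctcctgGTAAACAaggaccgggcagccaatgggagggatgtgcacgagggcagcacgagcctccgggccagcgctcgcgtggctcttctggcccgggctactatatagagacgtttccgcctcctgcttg
FOXO4: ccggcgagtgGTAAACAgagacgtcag
The TATA box letters TATAAA were found in *DEPP1* only among the 10, 31 bases before the start, and in 14.0% of all genes (11.5% of windows). Other forms of a TATA box, such as the TATATA in the *TXNIP* sequence above, were not searched. The E-box CACGTG, which MondoA and other basic helix-loop-helix factors bind, was found in *CCNG2* and *CITED2*, and in 8.77% of all genes (7.26% of windows). Other forms of the site were not searched, so no match in *TXNIP* does not speak to MondoA there. CAAAACA, the core of the insulin response element, was found in *IRS2*, and in 6.05% of all genes (4.92% of windows). The RFX motifs GTTGCCA and GTTGCTA, in 4.98% and 3.49% of all genes (4.08% and 2.85% of windows), were not found in the 17 windows of these genes. A match is a run of letters in a window, and no match says only that the letters are not there.

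No values per library were used here, so levels are group means in normalized counts, recovered from the deposited fold changes and their errors, each ± the SE of the fit (n = 3). Their scale is approximate: set to the mean of the deposited table, every *DEPP1* level is 0.6 times the value given and every *TXNIP* level 1.42 times, while ratios between groups stay as they are. The authors' fit may pool the spread over samples beyond these groups, so the SEs may not come from these groups alone. For *ANKRA2* the deposited mean was 31600, while the SE was 0.18 for siANKRA2 in DMSO and 0.06 for siRFXANK in Nutlin-3a. In the recovery used here, counts of that size in every group would give nearly equal SEs. The deposited mean can therefore not be over these 6 groups alone, and factors and ranks that use it carry this limit. Which further samples it covers was not tested. Levels are compared between groups and not between genes, since no value is per length.

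In siControl cells, the *DEPP1* level was 139 ± 9.0 in DMSO and 1394 ± 63 in Nutlin-3a, the widest span of the 9 genes as a ratio. In siANKRA2 cells it was 312 ± 17 and 750 ± 35, and in siRFXANK cells 385 ± 20 and 1103 ± 51. Both knockdowns thus sat above siControl in DMSO and below it in Nutlin-3a. Both are set against the same siControl samples, which are part of the contrast that chose *DEPP1*. That choice favours a low siControl level in DMSO and a high one in Nutlin-3a, so the 2 knockdowns are not separate evidence. Nutlin-3a over DMSO was 10.1-fold in siControl cells, 2.40-fold in siANKRA2 cells and 2.87-fold in siRFXANK cells. On the log2 scale these responses were 3.33 ± 0.11, 1.27 ± 0.10 and 1.52 ± 0.099 (SE). The response in siANKRA2 cells, the only 1 that is tested for this gene, was past the threshold in the authors' deposited table (adjusted p = 1e-32). Ranked among 13103 genes whose mean reached 100 normalized counts, *DEPP1* had the 47th highest response in siControl cells, the 121st in siANKRA2 cells and the 268th in siRFXANK cells. The response in siRFXANK minus that in siControl cells, the value by which the gene was chosen, was -1.81 ± 0.15 on the log2 scale, the 3rd lowest of these genes, and for siANKRA2 it was -2.06 ± 0.15, the 22nd lowest.

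Knockdown over siControl turned around between treatments for *DEPP1*, a pattern that its choice favours. In DMSO its level was 2.25-fold higher after siANKRA2 (log2 1.17 ± 0.12) and 2.78-fold higher after siRFXANK (log2 1.47 ± 0.12). In Nutlin-3a it was 1.86-fold lower after siANKRA2 (log2 -0.89 ± 0.094) and 1.26-fold lower after siRFXANK (log2 -0.34 ± 0.092). A batch that acts alike on both treatments would cancel from the difference of the responses but not from these values. *DEPP1* (chromosome 10, 44970981 to 44978810, GRCh38) lies wholly inside *RASSF4* on the opposite strand, with exons that overlap, and the use of strand in counting is not given in the sources used here. The log2 response of *RASSF4* to Nutlin-3a was 0.40 ± 0.11 in siControl, 0.12 ± 0.16 in siANKRA2 and 0.37 ± 0.11 in siRFXANK cells. Its siANKRA2 effect was -1.57 ± 0.14 in DMSO and -1.85 ± 0.13 under Nutlin-3a, and its siRFXANK effect -0.06 ± 0.11 and -0.10 ± 0.11. The sign was that of *DEPP1* in all of these but the DMSO effects. The *RASSF4* response in siANKRA2 cells and both siRFXANK effects did not pass the threshold, so their signs say little. The *RASSF4* difference of responses was -0.28 ± 0.19 with siANKRA2 and -0.04 ± 0.15 with siRFXANK, neither past the threshold. The part of *RASSF4* in the *DEPP1* values was not tested. The genes most like *DEPP1* over the 6 deposited fold changes, by root mean square difference in log2 among 13102 others, were *HS3ST4* (0.37), *EBI3* (0.46) and *AC010457.1* (0.51). They were picked on these values, so what they share with *DEPP1* is fixed by the choice. Where *DEPP1* was at -0.34 after siRFXANK in Nutlin-3a, they were at 0.01, 0.11 and -0.32.

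**Figure D1:**
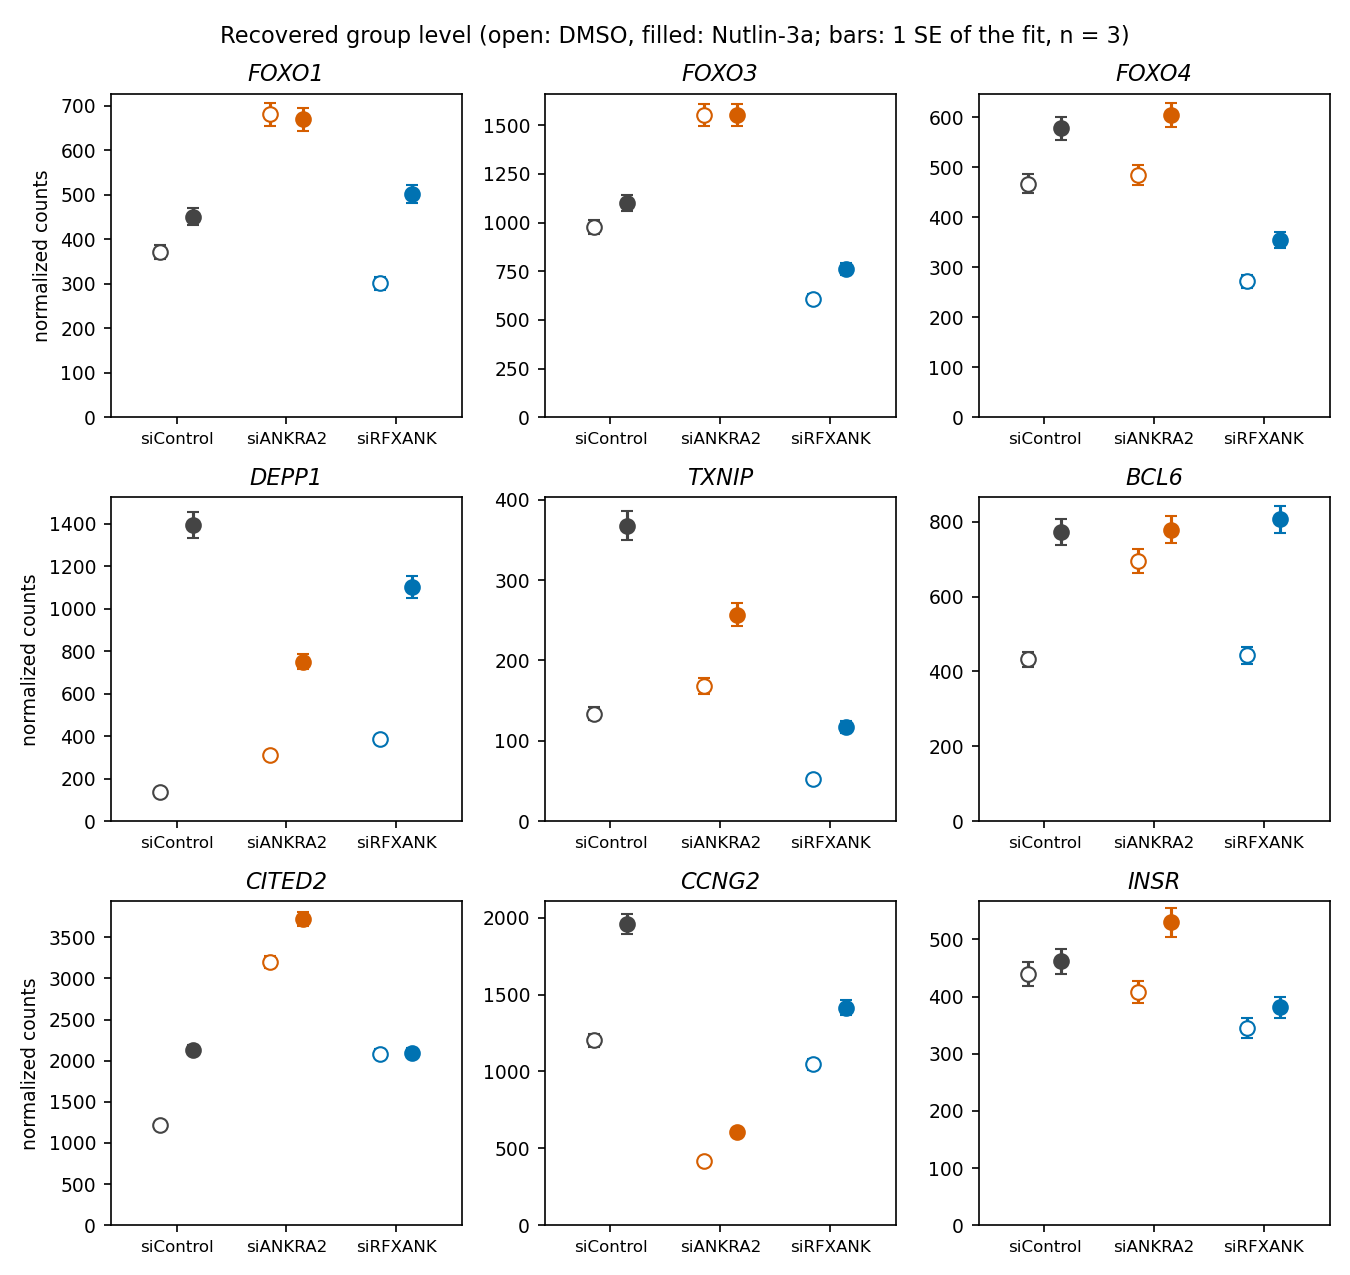
Recovered group level of each of the 9 genes in normalized counts (vertical axes, from 0, own scale per gene) for siControl, siANKRA2 and siRFXANK cells in DMSO (open) and Nutlin-3a (filled); bars are 1 SE of the fit, 3 samples per group. DEPP1 spans 139 to 1394, CCNG2 is lowest in both siANKRA2 groups, and TXNIP and FOXO4 are lowest in siRFXANK cells in DMSO.

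The question of the first comparison was which of these genes respond to p53 activation in control cells. In siControl cells, 6 of the 8 genes other than *DEPP1* were higher in Nutlin-3a, none was lower and 2 did not pass the threshold of an adjusted p under 0.05 in the authors' deposited table. Over all 25909 genes tested, 21.9% were higher and 21.2% lower, and the median log2 value was 0.51 over the 8 genes and 0.015 over all. In the other comparisons the median over the 8 genes was 0.27 for Nutlin-3a in siANKRA2 cells and 0.41 in siRFXANK cells, 0.50 and 0.13 for siANKRA2 in DMSO and Nutlin-3a, -0.32 and -0.37 for siRFXANK, and -0.24 and 0.05 for the differences of the responses with siANKRA2 and siRFXANK. The median over all genes tested lay between -0.017 and 0.018 in all 9 comparisons.

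The level of *TXNIP* rose from 134 ± 8.5 in DMSO to 368 ± 18 in Nutlin-3a, 2.75-fold (log2 1.46 ± 0.12, adjusted p = 1.4e-35). *BCL6* rose 1.79-fold, from 432 ± 21 to 772 ± 35 (log2 0.84 ± 0.097, adjusted p = 4.4e-17). *CITED2* rose 1.76-fold, from 1216 ± 32 to 2135 ± 52 (log2 0.81 ± 0.052, adjusted p = 3.3e-54). *CCNG2* rose 1.63-fold, from 1202 ± 42 to 1958 ± 66 (log2 0.70 ± 0.07, adjusted p = 1.9e-22). The 95% intervals of these 4 targets all lay above those of the factors, of which *FOXO4* rose 1.24-fold (adjusted p = 0.00057) and *FOXO1* 1.22-fold (adjusted p = 0.0036). *FOXO3* had a log2 value of 0.17 ± 0.077 (95% interval 0.02 to 0.32, adjusted p = 0.065) and *INSR* one of 0.07 ± 0.098 (-0.12 to 0.27, adjusted p = 0.61), neither past the threshold.

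In siANKRA2 cells, Nutlin-3a over DMSO was higher in 5 of the 8 genes and lower in none, beside 15.5% higher and 17.0% lower of 22738 genes. *TXNIP* rose from 168 ± 10 to 257 ± 14, 1.53-fold (adjusted p = 1.2e-06), *CCNG2* from 415 ± 17 to 608 ± 24, 1.46-fold (adjusted p = 3.9e-10), and *CITED2* from 3202 ± 74 to 3720 ± 85, 1.16-fold (adjusted p = 2.5e-05). *INSR*, with no call in siControl cells, rose 1.30-fold, from 408 ± 20 to 530 ± 25 (adjusted p = 0.00067), and *FOXO4* 1.25-fold, from 484 ± 20 to 605 ± 24 (adjusted p = 0.00049). *BCL6* stood at 695 ± 32 and 779 ± 36 (adjusted p = 0.18), *FOXO1* at 681 ± 26 and 670 ± 26 (adjusted p = 0.87) and *FOXO3* at 1552 ± 56 and 1555 ± 57 (adjusted p = 0.99).

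The response in siRFXANK cells was computed from 3 deposited comparisons and does not involve the siControl samples. It was higher in 6 of the 8 genes and lower in none, beside 22.8% higher and 22.5% lower of 25116 genes. *TXNIP* rose 2.22-fold, from 52.7 ± 4.7 to 117 ± 7.7 (adjusted p = 4.7e-12), *BCL6* 1.82-fold, from 443 ± 22 to 806 ± 37 (adjusted p = 4.1e-18), and *CCNG2* 1.35-fold, from 1046 ± 38 to 1414 ± 49 (adjusted p = 8.4e-09). All 3 factors rose, *FOXO1* 1.67-fold from 301 ± 14 to 502 ± 21 (adjusted p = 1.2e-15), *FOXO4* 1.31-fold from 272 ± 13 to 355 ± 16 (adjusted p = 0.00011) and *FOXO3* 1.25-fold from 607 ± 25 to 760 ± 30 (adjusted p = 0.00024). *CITED2* stood at 2087 ± 51 and 2099 ± 51 (log2 0.01, 95% interval -0.09 to 0.11, adjusted p = 0.91), and *INSR* stood at 345 ± 17 and 381 ± 19 (log2 0.14, -0.06 to 0.34, adjusted p = 0.28).

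**Figure D2:**
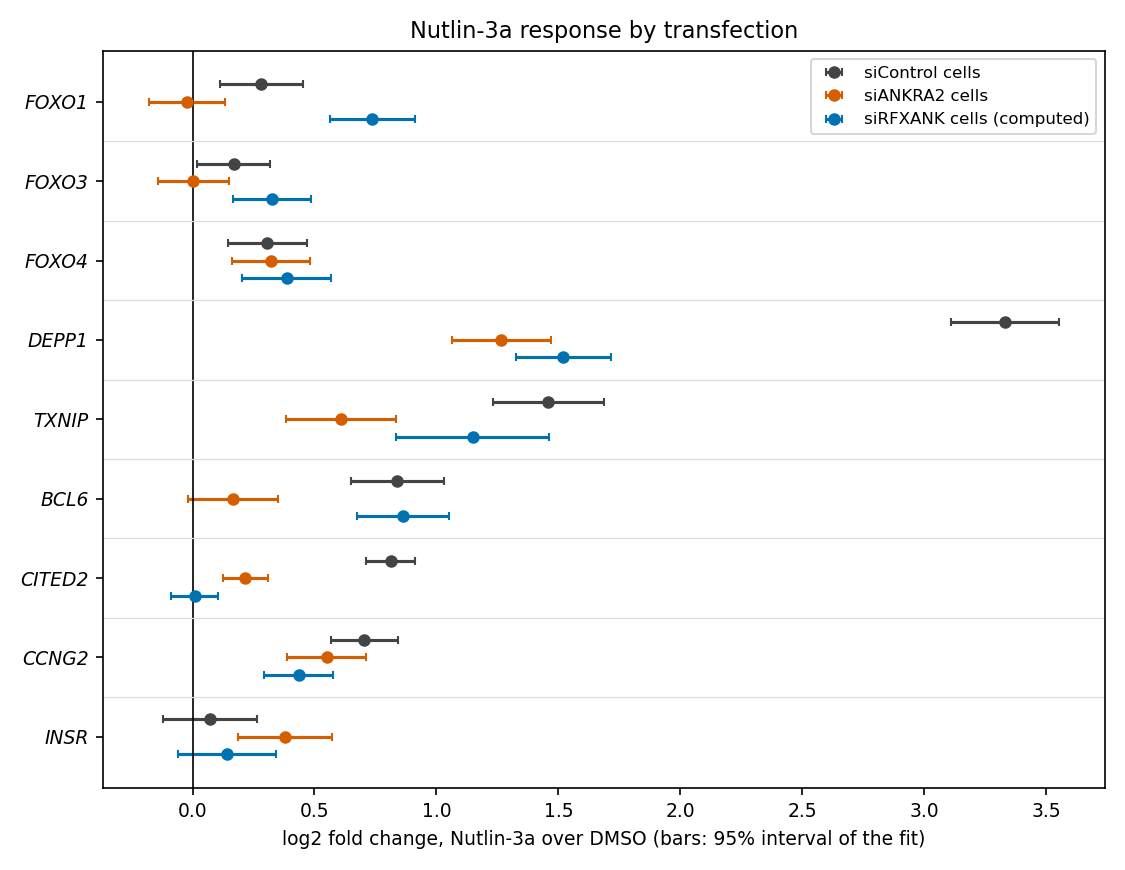
Nutlin-3a over DMSO as log2 fold change (horizontal axis) for each gene in siControl, siANKRA2 and siRFXANK cells; bars are 95% intervals of the fit and the line at 0 marks no change. DEPP1 stands at 3.33 in siControl cells and at 1.27 and 1.52 after the knockdowns, while FOXO4 has nearly the same value in all 3, from 0.31 to 0.39.

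Whether ANKRA2 or RFXANK knockdown alters these responses was tested on the difference of the responses itself. Smaller and larger, here and for the lists below, refer to the signed log2 value, so a weaker fall counts as larger. With siANKRA2, the response was smaller than in siControl cells for 4 of the 8 genes and larger for none, beside 12.5% smaller and 11.4% larger of 22738 genes. The difference in log2 was -0.85 ± 0.16 for *TXNIP* (adjusted p = 2.7e-06), -0.67 ± 0.14 for *BCL6* (adjusted p = 7.8e-06), -0.60 ± 0.07 for *CITED2* (adjusted p = 5.5e-16) and -0.31 ± 0.12 for *FOXO1* (adjusted p = 0.042). For *FOXO1* the call was lost when all values were shifted by the median of genes with a mean of at least 100 (adjusted p = 0.051). The difference was 0.31 for *INSR* (95% interval 0.03 to 0.58, adjusted p = 0.099), -0.16 for *FOXO3* (-0.37 to 0.04, adjusted p = 0.30), -0.15 for *CCNG2* (-0.37 to 0.06, adjusted p = 0.35) and 0.01 for *FOXO4* (-0.21 to 0.24, adjusted p = 0.96). These counts are to be read beside the response of all genes. Of 4246 genes that rose in siControl cells and whose mean reached 100, 49.8% had a smaller response after siANKRA2 by the same test and 0.518% a larger one, and their median log2 response was 0.44 in siControl and 0.21 in siANKRA2 cells. This share was computed after the values were seen, and choosing genes for a rise in siControl cells by itself favours a smaller value elsewhere. The p53 targets *MDM2* and *CDKN1A* also had smaller responses, by -1.19 ± 0.07 and -1.85 ± 0.06, but they differed in level. In siANKRA2 over siControl, *MDM2* was at -0.11 ± 0.05 in DMSO and -1.3 ± 0.05 in Nutlin-3a. *CDKN1A* was higher in both, at 2.04 ± 0.04 in DMSO and 0.2 ± 0.04 in Nutlin-3a, so its smaller response went with the higher level in DMSO.

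With siRFXANK, the contrast by which *DEPP1* was chosen, the response was smaller for 2 of the 8 genes and larger for 1, beside 9.64% smaller and 11.6% larger of 25116 genes. The values were -0.80 ± 0.071 for *CITED2* (adjusted p = 1.5e-26), -0.27 ± 0.10 for *CCNG2* (adjusted p = 0.038) and 0.46 ± 0.12 for *FOXO1* (adjusted p = 0.0024). The difference was -0.31 for *TXNIP* (95% interval -0.70 to 0.08, adjusted p = 0.30), 0.02 for *BCL6* (-0.24 to 0.29, adjusted p = 0.94), 0.07 for *INSR* (-0.21 to 0.35, adjusted p = 0.82), 0.16 for *FOXO3* (-0.06 to 0.38, adjusted p = 0.38) and 0.08 for *FOXO4* (-0.16 to 0.32, adjusted p = 0.74). Of the same 4246 genes, 30.9% had a smaller and 12.0% a larger response after siRFXANK. The sign of the difference for *FOXO1* was opposite in the 2 knockdowns. Both differences share the siControl samples.

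**Figure D3:**
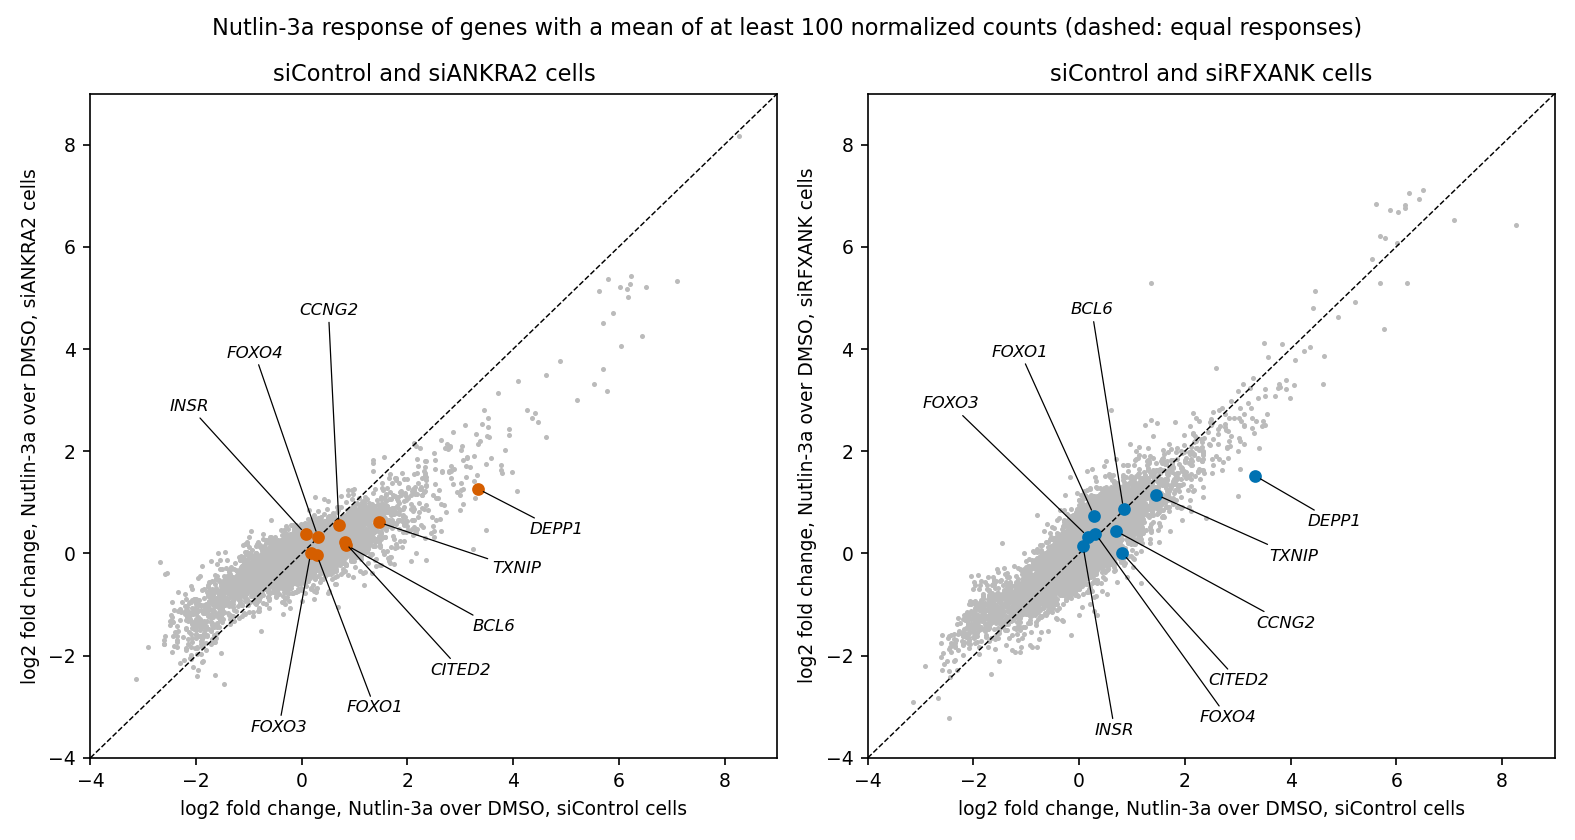
Nutlin-3a over DMSO as log2 fold change in siControl cells (horizontal axes) against siANKRA2 (left) and siRFXANK cells (right) for all genes with a mean of at least 100 normalized counts (grey) and the 9 genes (coloured); the dashed line marks equal responses. In siANKRA2 cells the cloud as a whole lies flatter than the dashed line; DEPP1 lies at 3.33 against 1.27 on the left and against 1.52 on the right.

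Knockdown over siControl within 1 treatment gave each gene's level at rest and under p53 activation. After siANKRA2 in DMSO, 5 of the 8 genes were higher and 1 lower, beside 24.3% higher and 24.5% lower of 26702 genes. *CITED2* was 2.63-fold higher (adjusted p = 5.7e-165), *FOXO1* 1.84-fold (adjusted p = 2.7e-24), *BCL6* 1.61-fold (adjusted p = 1e-11), *FOXO3* 1.59-fold (adjusted p = 1.1e-17) and *TXNIP* 1.26-fold (adjusted p = 0.018). *CCNG2* went the other way and was 2.90-fold lower (adjusted p = 5.6e-82). *FOXO4* (log2 0.05, 95% interval -0.11 to 0.22) and *INSR* (log2 -0.11, -0.30 to 0.09) did not pass the threshold.

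After siANKRA2 in Nutlin-3a, 3 genes were higher and 2 lower, beside 24.6% higher and 25.5% lower of 26702 genes. *CITED2* was 1.74-fold higher (adjusted p = 1.3e-61), *FOXO1* 1.49-fold (adjusted p = 2.3e-11) and *FOXO3* 1.42-fold (adjusted p = 1.3e-10), so these 3 were raised in both treatments. *CCNG2* was 3.22-fold lower (adjusted p = 1.4e-111). *TXNIP* changed sides, from higher in DMSO to 1.43-fold lower in Nutlin-3a (adjusted p = 2.4e-06). *BCL6* was at 772 ± 35 in siControl and 779 ± 36 in siANKRA2 cells (log2 0.01, 95% interval -0.17 to 0.20, adjusted p = 0.93), so its smaller response went with the higher level in DMSO. *INSR* (log2 0.20, 0.01 to 0.39, adjusted p = 0.08) and *FOXO4* (log2 0.07, -0.09 to 0.22, adjusted p = 0.53) had no call.

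After siRFXANK in DMSO, 1 gene was higher and 6 lower, beside 20.9% higher and 21.2% lower of 25909 genes, and batch and siRFXANK cannot be told apart in these values. *CITED2* was 1.72-fold higher (adjusted p = 1.7e-49). *TXNIP* was 2.54-fold lower (adjusted p = 1.2e-16), *FOXO4* 1.72-fold (adjusted p = 4.1e-17), *FOXO3* 1.61-fold (adjusted p = 1.1e-16), *INSR* 1.27-fold (adjusted p = 0.0018), *FOXO1* 1.23-fold (adjusted p = 0.0032) and *CCNG2* 1.15-fold (adjusted p = 0.016). *BCL6* did not pass (log2 0.04, 95% interval -0.16 to 0.23).

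In Nutlin-3a, 5 of the 8 genes were lower after siRFXANK and none higher, beside 19.6% lower and 19.8% higher of 25116 genes. *TXNIP* was 3.15-fold lower (adjusted p = 2.4e-42), *FOXO4* 1.63-fold (adjusted p = 1.7e-15), *FOXO3* 1.45-fold (adjusted p = 1.1e-10), *CCNG2* 1.38-fold (adjusted p = 1.7e-10) and *INSR* 1.21-fold (adjusted p = 0.015). These 5 were lower in both treatments. *FOXO1* (log2 0.15, 95% interval -0.01 to 0.32), *BCL6* (log2 0.06, -0.12 to 0.24) and *CITED2* (log2 -0.02, -0.12 to 0.07) had no call, and *CITED2* reached 2135 ± 52 in siControl and 2099 ± 51 in siRFXANK cells.

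**Figure D4:**
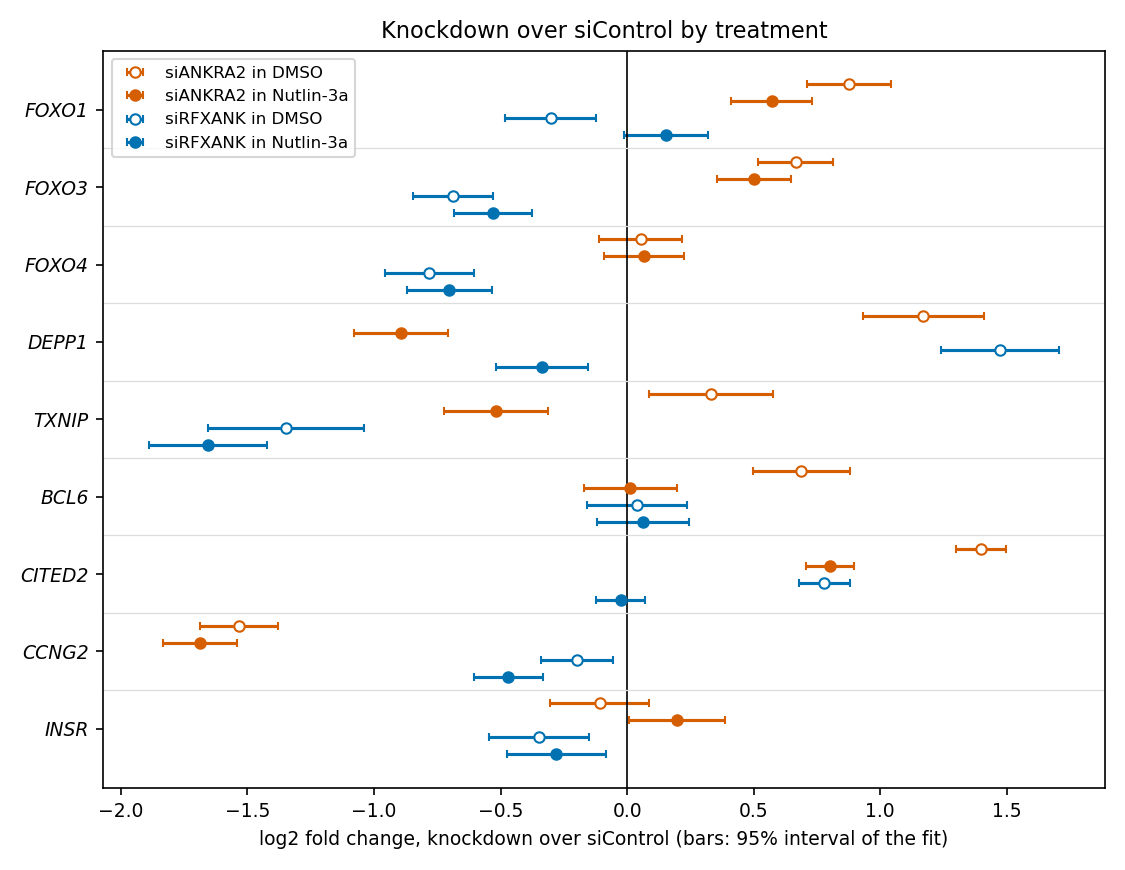
Knockdown over siControl as log2 fold change (horizontal axis) for each gene, siANKRA2 and siRFXANK in DMSO (open) and Nutlin-3a (filled); bars are 95% intervals of the fit. CCNG2 lies at -1.53 and -1.69 after siANKRA2 and TXNIP at -1.35 and -1.66 after siRFXANK. DEPP1 is above 0 in DMSO and below 0 in Nutlin-3a after both, which share the siControl samples used to choose it.

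The order of the 6 levels differed between genes. For *CITED2* the highest level (3720 ± 85, siANKRA2 in Nutlin-3a) was 3.06 times the lowest (1216 ± 32, siControl in DMSO), and siRFXANK in DMSO, siRFXANK in Nutlin-3a and siControl in Nutlin-3a did not differ beyond 1.96 SE from their neighbours among these 3. For *CCNG2* the highest (1958 ± 66, siControl in Nutlin-3a) was 4.72 times the lowest (415 ± 17, siANKRA2 in DMSO), with all neighbours apart. For *TXNIP* the ratio was 6.98, with siRFXANK in Nutlin-3a and siControl in DMSO not apart. *FOXO3* spanned 2.56-fold, *FOXO1* 2.26-fold and *FOXO4* 2.22-fold. In all 3 the lowest level was that of siRFXANK cells in DMSO, and for *FOXO1* and *FOXO3* the siANKRA2 groups were highest and did not differ from each other beyond their error. *BCL6* spanned 1.87-fold and fell into a pair of low levels, siControl and siRFXANK in DMSO, and 4 high ones whose neighbours were not apart. *INSR* spanned 1.54-fold, and only its highest level, siANKRA2 in Nutlin-3a, lay more than 1.96 SE from its neighbour.

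Some of these values carry a limit of annotation. In 31-base stretches, 36.4% of the longest *FOXO3* transcript also occurs in *FOXO3B* or *AC026271.3*, so reads could be split between them and *FOXO3* is uncertain. *FOXO3B* had log2 values of 0.41 ± 0.13 for Nutlin-3a in siControl cells and 1.09 ± 0.13 for siANKRA2 in DMSO, of the same sign as *FOXO3*. For siRFXANK in Nutlin-3a it was at -0.1 ± 0.13, where *FOXO3* was at -0.53 ± 0.079. Its difference of responses with siANKRA2 passed the threshold (-0.48 ± 0.18, adjusted p = 0.029), while that of *FOXO3* did not. *FOXO1* (chromosome 13, 40469953 to 40666597) overlaps exons of *LINC00598* on the same strand, whose mean was 2.07 normalized counts. *BCL6* (chromosome 3, 187721377 to 187745727) overlaps exons of the antisense genes *AC072022.1* and *AC072022.2*, which have no row in the tables used here.

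The wider set of FOXO targets was followed with a list of 39 symbols, of which 32 had values. In siControl cells 21 rose in Nutlin-3a, 6 fell and 5 did not pass, with a median log2 value of 0.42, beside the 21.9% higher and 21.2% lower of all genes. The largest rises were *CDKN1A*, the CDK inhibitor p21, at 3.27 ± 0.04, and *GADD45A*, a DNA damage response gene, at 2.02 ± 0.05, both of which are p53 targets as well. The other genes of the list were not checked for this. Nor was the list split by whether FOXO raises or lowers a gene, so its counts do not measure FOXO activity. *ERBB3*, a receptor tyrosine kinase, fell by 1.04 ± 0.12 on the log2 scale, and *CDKN1B*, the CDK inhibitor p27, fell by 1.01 ± 0.05. In siANKRA2 cells 13 rose and 6 fell, with a median of 0.12, beside 15.5% and 17.0% of all genes. In siRFXANK cells 19 rose and 6 fell, with a median of 0.31, beside 22.8% and 22.5%. The response after siANKRA2 was smaller than in siControl cells for 19 and larger for 5, with a median difference of -0.46 against -0.017 over all genes, of which 12.5% were smaller and 11.4% larger. The list is rich in genes that rose in siControl cells, and of all such genes 49.8% had a smaller response after siANKRA2. *CDKN1A* (-1.85 ± 0.06) and *FBXO32*, a muscle ubiquitin ligase gene (-1.66 ± 0.11), were lowest, and *ERBB3* (1.22 ± 0.16) and *CDKN1B* (0.80 ± 0.08), which had fallen in siControl cells, highest. After siRFXANK the response was smaller for 10 and larger for 5, with a median difference of -0.13, beside 9.64% smaller and 11.6% larger of all genes and 30.9% smaller of those that rose in siControl cells. *CDKN1A* (-0.82 ± 0.06) and *PINK1*, a mitochondrial kinase gene (-0.65 ± 0.10), were lowest and *KLF2* (0.77 ± 0.22) and *RICTOR* (0.51 ± 0.13) highest. At rest in DMSO, siANKRA2 gave 19 higher and 9 lower, beside 24.3% and 24.5% of all genes, and siRFXANK 12 higher and 10 lower, beside 20.9% and 21.2%. In Nutlin-3a these were 17 and 10 after siANKRA2, beside 24.6% and 25.5%, and 8 and 14 after siRFXANK, beside 19.8% and 19.6%.

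Of 20 genes of the arm from the insulin receptor to AKT, upstream of FOXO, 4 rose and 4 fell with Nutlin-3a in siControl cells, with a median log2 value of -0.07, shares near the 21.9% and 21.2% of all genes. *IGF1R*, the IGF1 receptor and a paralog of *INSR*, rose by 1.66 ± 0.06, while *PHLPP1*, a phosphatase of AKT, fell by 0.86 ± 0.09 and the kinase *SGK3* by 0.55 ± 0.10. After siANKRA2 the response of *IGF1R* was smaller by -1.0 ± 0.09, and those of *PHLPP1* (0.71 ± 0.13) and *SGK3* (0.69 ± 0.18) were higher. In siANKRA2 cells neither *PHLPP1* (-0.15 ± 0.08) nor *SGK3* (0.15 ± 0.15) passed the threshold with Nutlin-3a. Over this list the response after siANKRA2 was larger for 5 and smaller for 2 of 19, beside 11.4% and 12.5% of all genes. After siRFXANK it was larger for 7 and smaller for 1 of 20, beside 11.6% and 9.64%, with *MTOR* (0.60 ± 0.15) and *SGK1* (0.51 ± 0.13) the highest and *MLST8* (-0.19 ± 0.07) the lower one.

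Among 24 modifiers and cofactors of FOXO proteins, 5 rose and 10 fell in siControl cells, with a median of -0.09, beside 21.9% and 21.2% of all genes. *MDM2*, a ubiquitin ligase for p53 and FOXO proteins, rose by 3.38 ± 0.05 and *SFN*, the 14-3-3 sigma gene, by 1.54 ± 0.05, while *FOXM1* fell by 1.62 ± 0.04 and *SKP2*, a subunit of a ubiquitin ligase, by 1.45 ± 0.06. After siANKRA2 the response was larger for 6, led by *SKP2* (0.99 ± 0.08) and *FOXM1* (0.63 ± 0.05), and smaller for 6, led by *MDM2* and *SFN* (-0.89 ± 0.07), beside 11.4% larger and 12.5% smaller of all genes. For *SKP2* and *FOXM1* the larger value was a weaker fall. After siRFXANK it was larger for 9, led by the acetyltransferase genes *EP300* (0.95 ± 0.24) and *CREBBP* (0.56 ± 0.18), and smaller for 6, led by *SFN* (-0.68 ± 0.07) and the deacetylase gene *SIRT2* (-0.37 ± 0.10), beside 11.6% and 9.64%.

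*TXNIP* is also a target of MondoA, the glucose-responsive factor encoded by *MLXIP*. Of 9 genes of that axis, 4 rose and none fell in siControl cells, with a median of 0.12, beside 21.9% and 21.2% of all genes. *ARRDC4*, an arrestin-domain gene related to *TXNIP*, rose by 1.87 ± 0.13 and *ARRDC3* by 0.47 ± 0.09. The response of *ARRDC4* was smaller after siANKRA2 (-1.02 ± 0.17) and after siRFXANK (-0.57 ± 0.19, adjusted p = 0.014). After siANKRA2 the glucose transporter gene *SLC2A1* was the other of 2 with a smaller response (-0.40 ± 0.06) and none had a larger one, beside 12.5% and 11.4% of all genes. After siRFXANK 4 were smaller, *ARRDC3* (-0.39 ± 0.13) among them, and 2 larger, *HK2* (hexokinase 2, 0.79 ± 0.11) and *MLXIP* (0.20 ± 0.07), beside 9.64% and 11.6%. Of 16 paralogs of the genes, 13 had values, of which 7 rose and 2 fell in siControl cells, with a median of 0.41, beside the same 21.9% and 21.2%. Those that fell were *CITED1* (by 0.92 ± 0.15) and *FOXO6* (by 0.58 ± 0.06), unlike *CITED2* and the 3 factors above. After siANKRA2 their differences were 0.60 ± 0.22 and 0.47 ± 0.11, so both fell less than in siControl cells. They were the 2 larger ones against 4 smaller, beside 11.4% and 12.5% of all genes. After siRFXANK 1 was larger, *FOXO3B* (0.51 ± 0.20), and 5 smaller, *ARRDC1* (-0.47 ± 0.15) among them, beside 11.6% and 9.64%.

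**Figure D5:**
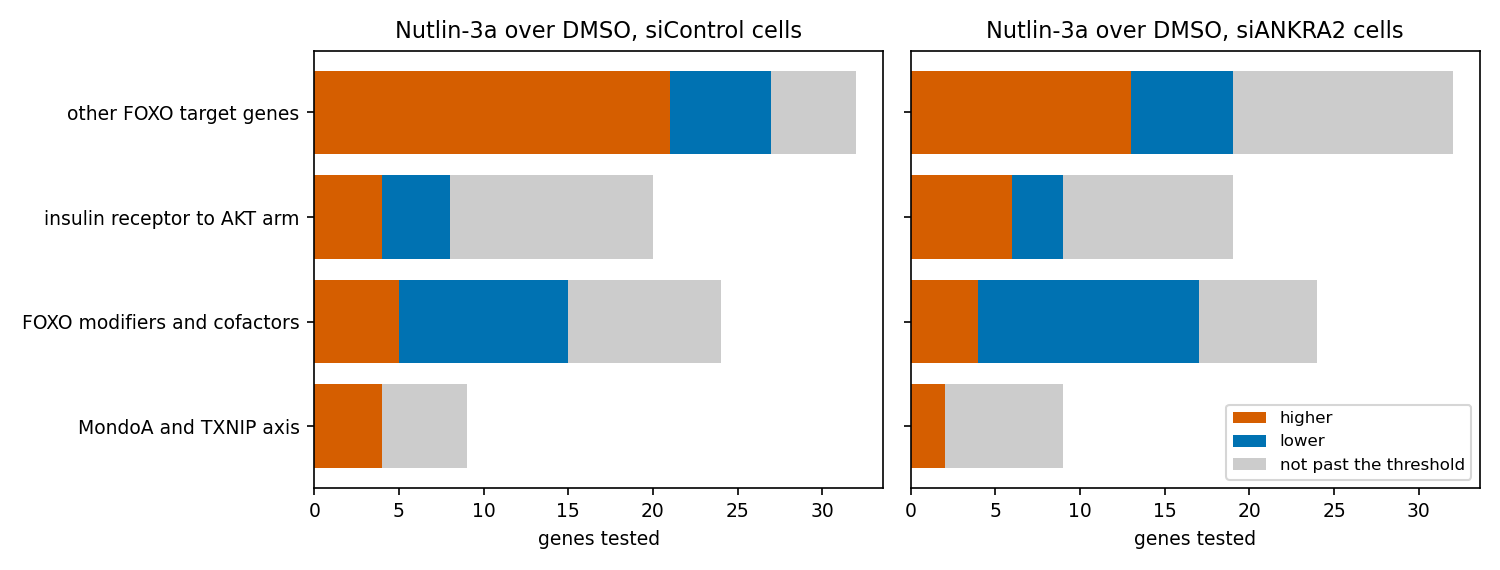
Number of genes (horizontal axes) in 4 lists that were higher, lower or not past an adjusted p under 0.05 with Nutlin-3a over DMSO in siControl (left) and siANKRA2 cells (right). Among the other FOXO target genes 21 of 32 were higher in siControl cells and 13 of 32 in siANKRA2 cells, beside 21.9% and 15.5% of all genes.

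The knockdown comparisons were read in the direction in which the target is lower, so the signs of the targets follow from the reading and do not check it. *ANKRA2* was at log2 -1.81 ± 0.18 after siANKRA2 in DMSO and -2.58 ± 0.12 in Nutlin-3a. *RFXANK* was at -2.96 ± 0.10 and -3.16 ± 0.10 after siRFXANK. *ANKRA2* was higher after siRFXANK, by 0.73 ± 0.11 and 0.46 ± 0.06. Of 12 osteoblast and mesenchymal markers, 8 were in all tables and above 3 normalized counts in every group, with summed levels of 168878 to 220744, and *SP7*, *IBSP* and *TWIST1* have no row. These sums are mostly *COL1A1*, *VIM* and *SPARC*, at 72798, 49727 and 31992 in siControl cells in DMSO. There *ALPL* was at 47.9 and *COL1A2* at 24.5. Of 13 epithelial markers, 9 were in all tables and 7 to 9 above 3 normalized counts, while *CLDN3* and *GRHL2* have no row. The summed level of the 9 was 32857 and 34422 in the siRFXANK groups, labelled epithelial, and 37978 to 59703 in the others. That sum is mostly 2 keratins, of which *KRT8* was at 21306 and 19130 in siRFXANK against 24843 and 27972 in siControl cells (DMSO and Nutlin-3a), and *KRT18* at 12318 and 13084 against 12123 and 12667. Their part in the results was not tested. Bulk RNA does not tell fewer cells from less RNA per cell.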

How the data were processed

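RNA-seq of 18 U2OS samples (6 groups of 3) was analysed. The submitters' processing notes name bcl2fastq 2.20.0.422, Trimmomatic 0.39, FastQC 0.11.9, cutadapt 2.10, SAMtools 1.10, Picard, featureCounts 1.6.5, DESeq2 1.20.0 and hg38. The aligner, annotation and use of strand are not given in the sources used here. The authors deposited 6 tables of DESeq2 comparisons. Each deposited table gives per gene the mean normalized count, treated as a signal, the authors' log2 fold change with its log2 SE, the deposited Wald score, and the authors' p-value with its adjusted p-value. Depth per library is unknown. A gene's deposited mean is the same in all 6 tables, and the 4 among siControl and siANKRA2 groups close to within 1.4e-14. The siRFXANK response takes all 6 to come from 1 joint fit, which closure cannot check for siRFXANK. Knockdown tables were read as knockdown over siControl because the target is then lower. For siRFXANK no closure checks that reading either.

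No count model was run. With Python 3.11.15 and pandas 2.3.3, the siRFXANK response (knockdown effect in Nutlin-3a minus that in DMSO plus the siControl response) and the differences of responses were computed with SEs from the deposited ones, a two-sided normal test and Benjamini-Hochberg adjustment over all genes. Levels were recovered from fold changes and SEs, with 3 normalized counts as floor. The steps were tested on simulated data. Named genes were the 10 members, the 3 genes most like *DEPP1*, the knockdown targets, *MDM2*, *CDKN1A* and, per list, at most 2 rises and 2 falls among called genes whose mean reached 100, in siControl cells and both differences; *RASSF4* and the other overlapping genes were added after their values were seen. Of the genes this rule names, 1 is not reported here. A symbol with 2 gene IDs counted once, by its higher mean. Members, lists and tests were chosen with earlier results of these data known. Alternatives were a threshold of 0.01, a minimum absolute log2 value of 1, minimum means of 10 and 100, a shift by the median, recomputed adjusted p-values, the other pair of tables and levels scaled to the deposited mean. Promoters and starts are from RefSeq on GRCh38.p14, gene positions and overlaps from GENCODE on GRCh38, and all 10 genes matched.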

Additional observations from a re-analysis of the deposited data

Results flagged for a closer look

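A test of the difference between Nutlin-3a responses, knockdown minus siControl, passed the threshold in 7 cases. Of all genes, 12.5% were smaller and 11.4% larger after siANKRA2, and 9.64% and 11.6% after siRFXANK. Of genes that rose in siControl cells, 49.8% were smaller after siANKRA2 and 30.9% after siRFXANK. At a threshold of 0.01, *FOXO1* after siANKRA2 (adjusted p = 0.042) and *CCNG2* after siRFXANK (adjusted p = 0.038) did not pass. After siANKRA2 the difference on the log2 scale was -0.85 for *TXNIP*, -0.67 for *BCL6*, -0.60 for *CITED2* and -0.31 for *FOXO1*. After siRFXANK it was -0.80 for *CITED2*, 0.46 for *FOXO1* and -0.27 for *CCNG2*. *CITED2* was lower in both, and *FOXO1* lower in the former and higher in the latter; both differences share the siControl samples. *DEPP1* was not tested.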

How the results depend on the processing

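With a minimum absolute log2 value of 1 added to the threshold, the number of genes past it among the 8 fell from 6 to 1 for Nutlin-3a in siControl cells, from 5 to 0 in siANKRA2 cells and from 6 to 1 in siRFXANK cells. It fell from 6 to 2 for siANKRA2 in DMSO, from 5 to 1 for siANKRA2 in Nutlin-3a, from 7 to 1 for siRFXANK in DMSO and from 5 to 1 for siRFXANK in Nutlin-3a, and from 4 to 0 and from 3 to 0 for the differences with siANKRA2 and siRFXANK. By construction that setting keeps only changes of at least 2-fold. The share of all genes past it was not computed, so these drops are not set against genes in general. Under the other alternatives run for these 9 counts each stayed within 1.5 times its value. At a threshold of 0.01 the count fell from 6 to 5 for siANKRA2 in DMSO, and from 7 to 6 and 5 to 4 for siRFXANK in DMSO and Nutlin-3a. For the differences with siANKRA2 and siRFXANK it fell from 4 to 3 and from 3 to 2. The count for Nutlin-3a in siControl cells was 7 with a minimum mean of 10, with a minimum mean of 100 and with the shift by the median. The shift by the median moved the adjusted p of *FOXO3* for Nutlin-3a in siControl cells to 0.048, past the threshold, and that of *FOXO1* for the difference with siANKRA2 to 0.051; of the log2 values of the 9 genes in the 9 comparisons, no other changed its call. Scaling to the deposited mean, which is not over these groups alone, moved 48 of 54 levels by more than 1 SD between samples of the fit. No paired analysis was possible because the tables hold no values per library, and for the same reason no replicate could be left out in turn, so whether 1 library decides a value was not tested.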
